A study of Mus musculus with 3 samples.

Results

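The mammalian circadian clock is a transcriptional loop that runs in most cells of the body, and 10 of its genes were followed through the cell classes of the mouse dorsal root ganglion (DRG). The genes were Arntl, Per1, Per2, Per3, Nr1d1, Nr1d2, Ciart, Dbp, Tef and Hlf, out of 31053 genes in the deposited count matrices. The list was chosen on measured values, since Dbp and Nr1d1 had already stood out between the libraries in satellite glial cells (SGCs), so their levels in SGC-like cells describe what chose them. The measurements come from 3 single-cell RNA libraries of the L3 and L4 DRGs of 13-week-old male C57BL/6J mice, namely 1 untreated (naive) library and 1 library each from 7 and 14 days after spared nerve injury (SNI). In SNI some branches of the sciatic nerve are cut and another is left intact, and here both sides were operated. Each library pooled 8 DRGs of 2 mice that had been anesthetized and perfused, and the ganglia were dissociated with collagenase and dispase before capture. A condition is thus a single library, and neither a test nor a p-value is given. The injury cannot be told apart from anything else that differed between the libraries, and the hour of dissection, which sets the phase of clock genes, is not given in the sources used here. The methods of the paper describe female mice of another age for the study, whereas the labels of these libraries say male, and the labels were followed.

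In the loop, the protein of Arntl (Bmal1) pairs with Clock and switches on genes that carry an E-box, among them the Per genes, Nr1d1, Nr1d2, Ciart and Dbp. Per proteins, with Cry proteins, feed back on Arntl and Clock, Ciart is a further repressor of that pair, and the nuclear receptors encoded by Nr1d1 and Nr1d2 (Rev-erb alpha and beta) repress Arntl through ROR elements. Dbp, Tef and Hlf are related transcription factors that act on D-boxes and carry the rhythm to output genes. In tissues with a running clock Dbp and Nr1d1 peak at hours when Arntl is low.

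Promoter sequences of 4 members are shown because they carry letters by which these groups could be linked. These are E-boxes in Ciart and Per1, D-boxes in Per3 and a loose ROR pattern in Arntl. The sequences are RefSeq promoters of build GRCm38.p6, the build the files call mm10, each 300 bases long with 250 before and 50 after the start, written 5′ to 3′ on the gene's strand. Capitals mark an E-box (CACGTG), a D-box (TTANGTAA) or a loose ROR pattern (TNGGTCA), each searched on both strands, with no overlap between the marked runs. N is any base, so a run marked for the ROR pattern need not be a full ROR element. The Ciart promoter lies at chr3:95882179-95882478 on the minus strand, Per1 at chr11:69098699-69098998 on the plus strand, Per3 at chr4:151044616-151044915 on the minus strand and Arntl, at its second listed start, at chr7:113207261-113207560 on the plus strand.
Ciart: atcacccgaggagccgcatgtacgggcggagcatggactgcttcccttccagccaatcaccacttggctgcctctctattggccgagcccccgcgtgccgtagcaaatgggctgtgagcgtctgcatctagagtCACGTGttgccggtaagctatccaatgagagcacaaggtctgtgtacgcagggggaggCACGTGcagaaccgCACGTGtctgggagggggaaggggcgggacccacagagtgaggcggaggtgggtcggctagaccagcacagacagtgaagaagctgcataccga
Per1: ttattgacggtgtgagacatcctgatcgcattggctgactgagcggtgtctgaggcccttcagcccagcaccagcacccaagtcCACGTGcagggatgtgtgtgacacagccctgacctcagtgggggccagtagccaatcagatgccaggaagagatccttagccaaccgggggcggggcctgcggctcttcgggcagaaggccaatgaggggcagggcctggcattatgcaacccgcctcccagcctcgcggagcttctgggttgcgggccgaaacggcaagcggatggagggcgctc
Per3: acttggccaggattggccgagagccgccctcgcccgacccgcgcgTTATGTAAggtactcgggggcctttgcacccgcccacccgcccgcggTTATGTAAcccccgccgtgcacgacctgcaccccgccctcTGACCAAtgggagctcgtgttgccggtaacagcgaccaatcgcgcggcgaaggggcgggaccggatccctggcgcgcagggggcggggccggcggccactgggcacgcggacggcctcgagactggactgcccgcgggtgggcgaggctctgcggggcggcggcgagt
Arntl: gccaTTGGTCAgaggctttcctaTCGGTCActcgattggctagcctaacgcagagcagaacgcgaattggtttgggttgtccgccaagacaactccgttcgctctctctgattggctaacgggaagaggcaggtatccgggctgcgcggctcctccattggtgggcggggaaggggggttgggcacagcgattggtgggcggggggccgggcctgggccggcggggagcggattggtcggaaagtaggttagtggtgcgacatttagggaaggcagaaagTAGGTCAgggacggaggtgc
The Ciart promoter held 3 E-boxes and the Per1 promoter 1, where 7.15% of 32851 promoters of the same length held any. The Per3 promoter held 2 D-boxes and 1 match to the ROR pattern on the reverse strand, and 2.32% of all promoters held a D-box. The Arntl promoter shown held 3 matches to the ROR pattern and the first listed held 2, and 11% of promoters held any match to it. The Per1 promoter shown is the first listed, and the second held none of the 3 motifs. Both listed Tef promoters held 1 E-box, and the second also held 1 match to the ROR pattern. Those of Dbp, Nr1d1, Nr1d2 and Hlf held none of the 3 motifs in this window. A match is a description of the letters and not of a bound site. Per2 had no entry.

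Levels are given as CPM, that is, scaled to 1e+06 UMIs of the class: the unique molecular identifiers (UMIs) of a gene were summed over the cells of a class and divided by all UMIs of that class in the library. Cells under 500 genes or over 20% mitochondrial UMIs were dropped, and a cell entered a class when its markers led those of every other class by a set margin. This gate placed 8046 of 9572 cells, and 97.8% of the gated cells fell in the same class when Leiden clusters were named from the same markers. This agreement was lowest in non-myelinating Schwann-like cells, at 71.8% in naive, 81.5% at day 7 and 84.2% at day 14. A total of 1070 gated cells lay just inside the margin and 759 cells just under it. The libraries held 3123, 2650 and 3799 cells after filtering, in the order naive, day 7 and day 14, which is the order of all triplets of values below. Barcode sequences shared between pairs of libraries numbered 1, 6 and 2. There were 8 classes with at least 20 cells in each library: SGC-like, myelinating Schwann-like, non-myelinating Schwann-like, neuron-like, endothelial-like, mural-like (pericytes and vascular smooth muscle), fibroblast-like and macrophage-like cells. Their sizes ranged from 71 fibroblast-like cells at day 7 to 1300 myelinating Schwann-like cells at day 14. Neuron-like cells stood apart at day 7, where 118 of 174 had under 10000 UMIs, against 22 of 129 in the naive and 30 of 149 in the day 14 library. Fabp7, an SGC marker, reached 2.50%, 4.32% and 4.45% of its SGC-like level in the neuron-like cells, in the same order. In non-myelinating Schwann-like cells it reached 11.5%, 13.8% and 11.7%. Brackets give 95% intervals for counting error only, exact Poisson for a level and exact binomial for a ratio, and both ratios over naive share the naive library.

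As measured, the 8 classes had ratios of 1 direction for 5 of the 10 genes at day 14, with Nr1d1, Nr1d2, Per3 and Dbp higher than naive in 8 of 8 classes and Arntl lower in 8 of 8. The neuron-like Dbp ratio lay within counting error and turned negative, -0.62, once the RNA that SGCs could have left in these cells was taken away, as given below with the neuron-like values. The sizes were unequal. Neuron-like cells had nearly the same Dbp and Arntl in all libraries, endothelial-like cells had small ratios for Nr1d1 and Hlf, and mural-like cells had the highest ratio, bounds aside, of Dbp, Nr1d2, Per2, Per3, Tef and Hlf. At day 14 a ratio could be formed for 73 gene and class pairs, 47 of which (against 10.8% of such pairs over all genes with at least 10 UMIs) had an interval above 0 and 9 (against 8.93%) an interval below 0. At day 7 the numbers among 71 pairs were 30 above (against 7.28%) and 6 below (against 7.08%). The totals of both days include the SGC-like Dbp and Nr1d1 values that chose the list, and the classes share the same libraries.

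The same was done class by class at day 14, where the share of all genes with an interval above 0 is set beside the members. It was 12.7% in SGC-like cells, where 6 of 10 members were above, and 10.3% in myelinating Schwann-like cells, where 7 of 10 were. The SGC-like count includes Dbp and Nr1d1, whose values there chose the list. In non-myelinating Schwann-like cells the share was 4.86% and 4 of 7 members with a ratio were above. With this class taken from Leiden clusters, the day 14 intervals of Dbp (-0.12 to 3.98) and Nr1d2 (-0.17 to 1.80) included 0. Neuron-like cells had by far the highest share over all genes, 25.8%, and 5 of 10 members. The share was 10.7% in endothelial-like and 4.83% in mural-like cells, with 8 of 10 members in each. It was 4.42% in fibroblast-like cells with 5 of 9 members, and 4.26% in macrophage-like cells with 4 of 7, bounds against a naive level of 0 included. Below 0 were 2 members in SGC-like (Per1 and Arntl, share of all genes 12.2%) and 2 in non-myelinating Schwann-like cells (the same 2 genes, 5.27%). Arntl alone was below in myelinating Schwann-like (10.4%), endothelial-like (9.65%), mural-like (5.14%), fibroblast-like (5.7%) and macrophage-like cells (4.85%). No member was below in neuron-like cells, where 13.8% of all genes were. The median log2 ratio of all genes lay between -0.03 and 0.10 in these classes, and that of the members between 0.49 in endothelial-like and 1.87 in mural-like cells.

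**Figure D1:**
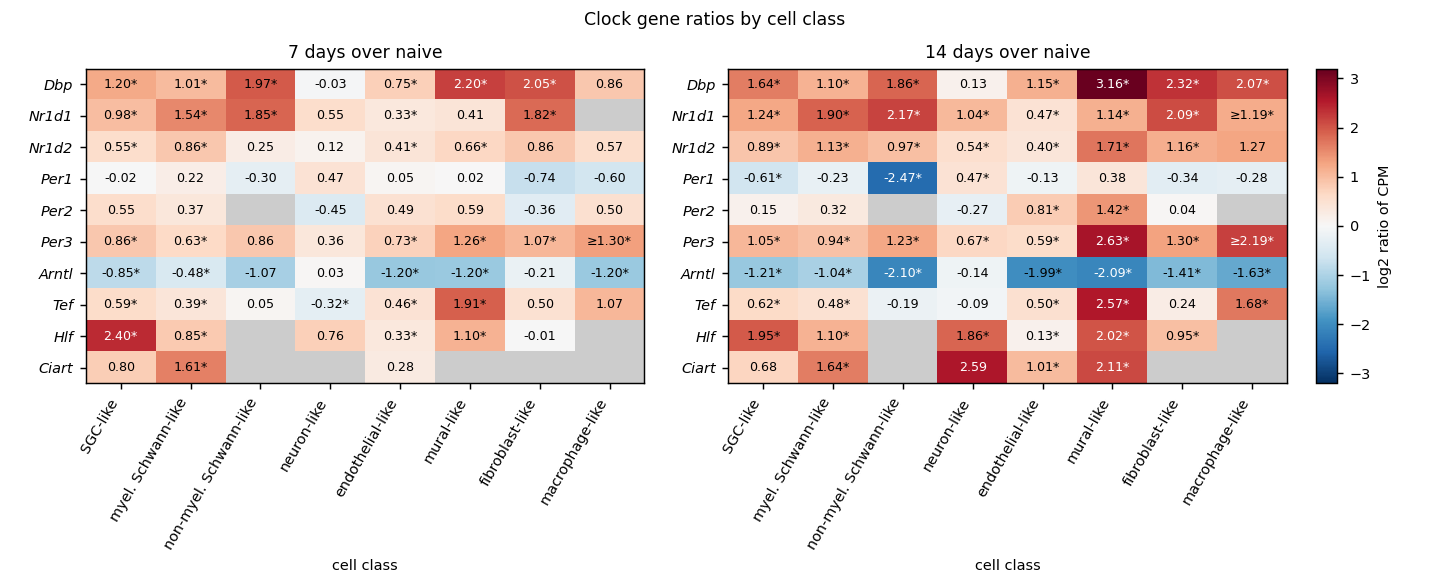
Log2 ratios of CPM at 7 days (left) and 14 days (right) over naive for the 10 genes (rows) in 8 cell classes (columns). An asterisk marks a counting interval that leaves out 0, ≥ marks a bound against a naive level of 0, and grey cells had too few UMIs. At 14 days the rows of Nr1d1, Nr1d2, Per3 and Dbp are above 0 in every column and the Arntl row below 0.

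Arntl, the activator, was the only member lower than naive in all 8 classes at day 14. In SGC-like cells it stood at 51.8, 28.8 and 22.5 CPM, a log2 ratio of -1.21 (-1.54 to -0.88) at day 14. In myelinating Schwann-like cells it stood at 40.0, 28.6 and 19.4 CPM, a ratio of -1.04 (-1.42 to -0.66), and in endothelial-like cells at 36.4, 15.8 and 9.17 CPM, a ratio of -1.99 (-2.72 to -1.30). In these 3 classes the naive library was highest and the day 14 library lowest, and the Poisson intervals of those libraries did not overlap. The remaining non-neuronal classes had fewer counts. Arntl was at 93.0, 44.2 and 21.7 CPM in non-myelinating Schwann-like cells, where the day 14 value rests on 10 UMIs, and at 51.9, 22.7 and 12.2 CPM in mural-like cells with 9 UMIs. It was at 47.0, 40.5 and 17.7 CPM in fibroblast-like cells with 15 UMIs and at 97.8, 42.6 and 31.5 CPM in macrophage-like cells with 36. Their day 14 ratios were -2.10, -2.09, -1.41 and -1.63, all with intervals below 0. In neuron-like cells Arntl was the lowest of any class, at 4.70, 4.82 and 4.26 CPM, with a day 14 ratio of -0.14 (-0.76 to 0.48). The neuron-like ratio was 1.12 (0.50 to 1.75) above that of all other gated cells, and the endothelial-like ratio was 0.93 below it (difference of -0.93, -1.62 to -0.23). Here and below, the UMIs of the other cells were pooled over classes. Their ratio thus also depends on the mix of classes, which differed between libraries. At day 7 Arntl had an interval below 0 in 5 classes, the SGC-like, myelinating Schwann-like, endothelial-like, mural-like and macrophage-like cells.

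Dbp, the output factor with the widest daily swing in many tissues, had the largest median ratio over classes, 1.10 at day 7 and 1.75 at day 14. Its naive level was highest in endothelial-like cells, at 100.8 CPM (86.5 to 116.8), and lowest in neuron-like cells, at 6.35 CPM (4.77 to 8.28). Between them came myelinating Schwann-like (33.6), mural-like (28.3), fibroblast-like (25.3), SGC-like (23.0), non-myelinating Schwann-like (13.8) and macrophage-like cells (11.5 CPM), and the intervals of neighbours in this order overlapped. In SGC-like cells Dbp went from 23.0 to 52.9 and 71.4 CPM, on 110, 204 and 353 UMIs. In myelinating Schwann-like cells it stood at 33.6, 67.5 and 72.2 CPM, and the last pair differed by less than counting error. In endothelial-like cells it stood at 100.8, 169.6 and 222.9 CPM, a day 14 ratio of 1.15 (0.90 to 1.40). The naive library was the lowest and stood apart from both injured libraries in each of these classes. Mural-like cells had the highest ratio, with 28.3, 129.8 and 252.7 CPM and a log2 ratio of 3.16 (2.32 to 4.14), which rests on 12 UMIs in the naive library. That ratio exceeded the ratio of all other gated cells by 1.91 (1.06 to 2.77). Dbp was at 25.3, 104.7 and 126.1 CPM in fibroblast-like cells and at 13.8, 54.0 and 49.9 CPM in non-myelinating Schwann-like cells, with 7 and 4 naive UMIs. In macrophage-like cells it was at 11.5, 20.9 and 48.2 CPM, with 2 UMIs in the naive library and a day 14 interval of 0.14 to 5.15. Neuron-like cells differed from the other classes: Dbp was at 6.35, 6.22 and 6.93 CPM and its day 14 ratio of 0.13 (-0.38 to 0.64) lay 1.33 under that of the other cells (difference of -1.33, -1.84 to -0.81).

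**Figure D2:**
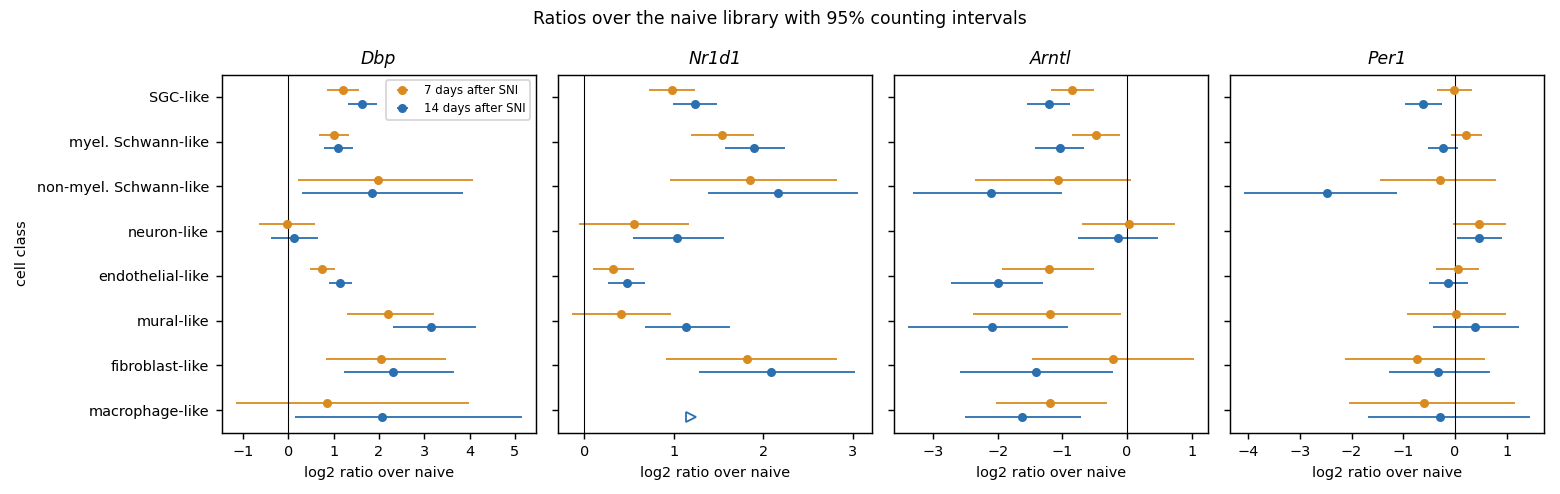
Log2 ratios over the naive library (horizontal axis) for Dbp, Nr1d1, Arntl and Per1 by cell class (vertical axis), with points for 7 and 14 days after SNI and bars for 95% counting intervals. The open triangle is a bound against a naive level of 0. Dbp and Arntl of neuron-like cells sit at 0, and the Per1 points fall on both sides of 0.

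The Rev-erb genes Nr1d1 and Nr1d2 were, as measured, higher in both injured libraries in every class where a ratio could be formed, although the neuron-like ratios at day 7 fell to about 0 once SGC RNA was allowed for. Nr1d1 stood at 42.2, 83.2 and 99.4 CPM in SGC-like cells and at 26.9, 78.3 and 100.3 CPM in myelinating Schwann-like cells. The myelinating Schwann-like ratio at day 14 was 1.90 (1.57 to 2.24), which was 0.92 (0.57 to 1.27) above that of the other cells, and the 2 Schwann-like classes and the fibroblast-like cells were each above the rest in this way. In non-myelinating Schwann-like cells Nr1d1 was at 51.7, 186.4 and 232.2 CPM and in fibroblast-like cells at 47.0, 165.5 and 200.3 CPM. Endothelial-like cells had the highest naive level, 163.4 CPM, and the smallest ratio, reaching 205 and 227 CPM, a day 14 ratio of 0.47 (0.27 to 0.68) that lay below the rest (difference of -0.99, -1.24 to -0.73). Mural-like cells were at 113.3, 150.4 and 250 CPM. In macrophage-like cells Nr1d1 had 0, 16 and 45 UMIs, so the day 14 level was at least 2.28-fold above the level that 3 naive counts would give, and the day 7 value gave no bound. Neuron-like cells were at 5.29, 7.77 and 10.9 CPM, a day 14 ratio of 1.04 (0.54 to 1.56). Nr1d1 shares 1075 bases with Thra, a gene transcribed the other way, and the use of strand in counting is not given in the sources used here. Thra, a thyroid hormone receptor, was at 300.9, 276.3 and 308.3 CPM over all gated cells, a day 14 ratio of 0.04 (-0.01 to 0.08).

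Nr1d2 had a narrower range of ratios, from 0.40 in endothelial-like to 1.71 in mural-like cells at day 14. It stood at 63.3, 92.8 and 117.4 CPM in SGC-like, 59.6, 108.4 and 130.3 CPM in myelinating Schwann-like and 75.5, 119.5 and 247.3 CPM in mural-like cells. In endothelial-like cells it was at 132.1, 175.3 and 174.2 CPM, so the injured libraries were alike and both were above naive. Neuron-like cells stood at 17.2, 18.7 and 24.9 CPM, where day 14 alone was above naive by its interval (0.54, 0.25 to 0.83). The non-myelinating Schwann-like, fibroblast-like and macrophage-like ratios at day 14 were 0.97, 1.16 and 1.27, the last on 5 naive UMIs with an interval of -0.02 to 2.93.

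The 3 Per genes, the repressors of the loop, did not share a pattern. Per3 was higher in all 8 classes and its day 14 interval was above 0 in 8 of 8, with ratios from 0.59 (endothelial-like) to 2.63 (mural-like). It stood at 52.3, 94.9 and 108.5 CPM in SGC-like, 83.1, 128.2 and 159.3 CPM in myelinating Schwann-like and 28.3, 68.0 and 175.3 CPM in mural-like cells. Fibroblast-like cells had the highest levels, at 130.2, 273.6 and 320.5 CPM. Their interval overlapped that of endothelial-like cells in the naive and day 7 libraries (122.4 and 202.5 CPM there) and lay above it at day 14 (184.8 CPM). Macrophage-like cells had 0, 47 and 90 Per3 UMIs, which put the log2 ratio at 1.30 or more at day 7 and 2.19 or more at day 14. Neuron-like cells were at 8.23, 10.6 and 13.1 CPM. Per3 lies inside Camta1 on the same strand, a gene whose reads could be counted with it.

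Per1, which also answers acutely to stimuli in many cells, had a day 7 interval that included 0 in all 8 classes taken whole. At day 14 it was lower in SGC-like cells, at 34.1, 33.7 and 22.3 CPM (ratio of -0.61, -0.98 to -0.26), and in non-myelinating Schwann-like cells, at 72.4, 58.9 and 13.0 CPM (ratio of -2.47, -4.07 to -1.12) on 21, 12 and 6 UMIs. It was higher in neuron-like cells, at 7.76, 10.7 and 10.7 CPM, by 0.47 (0.03 to 0.91). The neuron-like ratio lay 0.75 (0.29 to 1.20) above that of the other cells. Myelinating Schwann-like cells, at 50.1, 58.2 and 42.7 CPM, differed from naive by less than counting error at both times, while their 2 injured libraries differed from each other (-0.45, -0.72 to -0.18). Endothelial-like cells, at 58.7, 60.8 and 53.5 CPM, differed by less than counting error. So did mural-like cells, at 44.8, 45.3 and 58.4 CPM, fibroblast-like cells, at 50.7, 30.4 and 40.1 CPM, and macrophage-like cells, at 28.8, 19.0 and 23.6 CPM on 5, 21 and 27 UMIs.

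Per2 was sparse. Its day 14 interval was above 0 in endothelial-like cells, at 28.5, 39.9 and 49.9 CPM (0.81, 0.33 to 1.31), and in mural-like cells, at 26.0, 39.2 and 69.3 CPM (1.42, 0.46 to 2.51). In SGC-like cells, at 10.2, 15.04 and 11.3 CPM, and in myelinating Schwann-like cells, at 12.2, 15.8 and 15.3 CPM, the libraries could not be separated at this depth. Neuron-like cells were at 8.46, 6.22 and 7.01 CPM, a day 14 ratio of -0.27 that was under the other cells by more than counting error (difference of -0.85, -1.37 to -0.32). Fibroblast-like cells were at 21.7, 16.9 and 22.4 CPM. Non-myelinating Schwann-like cells had 0, 1 and 3 UMIs and macrophage-like cells 1, 9 and 4.

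Tef and Hlf are the relatives of Dbp. Tef was in all classes and was, with 55.4 CPM in the naive library, the highest member in neuron-like cells. It stood at 77.8, 116.7 and 119.6 CPM in SGC-like, 79.4, 104.1 and 110.9 CPM in myelinating Schwann-like and 128.7, 176.6 and 182.2 CPM in endothelial-like cells, with day 14 ratios of 0.62, 0.48 and 0.50. In all 3 the injured libraries were alike. Mural-like cells stood out at 30.7, 115.4 and 182.1 CPM, a day 14 ratio of 2.57 (1.75 to 3.52) that exceeded the other cells by 2.25 (1.43 to 3.08). Neuron-like cells were at 55.4, 44.3 and 52.2 CPM, below naive at day 7 (-0.32, -0.54 to -0.11) and within counting error of it at day 14. With cells thinned to 2000 UMIs the day 7 ratio was 0.94 (-0.44 to 2.42). Non-myelinating Schwann-like Tef, at 113.7, 117.7 and 99.8 CPM, and fibroblast-like Tef, at 126.6, 179 and 149.7 CPM, had intervals that included 0 at both times, and macrophage-like Tef went from 3 naive UMIs (17.3 CPM) to 36.3 and 55.2 CPM.

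Hlf was highest in endothelial-like cells. Its level there, 535.2, 671.5 and 584.9 CPM, was the highest of any member in any class, and the next class in the naive library, fibroblast-like, was at 112.2 CPM. The endothelial-like ratio was small, 0.33 (0.20 to 0.46) at day 7 and 0.13 (0.01 to 0.25) at day 14, the latter 1.61 under that of the other cells (difference of -1.61, -1.90 to -1.32). Mural-like cells stood at 56.6, 121.6 and 229.6 CPM and fibroblast-like cells at 112.2, 111.5 and 216.8 CPM. Myelinating Schwann-like cells stood at 19.6, 35.1 and 42.0 CPM. SGC-like cells held 4, 17 and 16 Hlf UMIs and neuron-like cells 7, 9 and 38, so their ratios of 1.95 and 1.86 at day 14 are loose. Non-myelinating Schwann-like cells held 2, 0 and 6 UMIs and macrophage-like cells 0, 4 and 13, too few for a ratio over naive.

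Ciart had the fewest counts, 53, 92 and 175 UMIs over all gated cells. It was above naive at day 14 in myelinating Schwann-like cells, at 2.14, 6.53 and 6.66 CPM, in endothelial-like cells, at 12.5, 15.2 and 25.3 CPM, and in mural-like cells on 2, 2 and 15 UMIs. SGC-like cells were at 4.18, 7.26 and 6.68 CPM with intervals that included 0. Neuron-like cells held 1, 4 and 9 UMIs. Fibroblast-like cells held 1, 2 and 7, macrophage-like cells 0, 5 and 4, and non-myelinating Schwann-like cells 0, 0 and 1. Ciart lies within an antisense gene, C920021L13Rik. On the opposite strand Dbp also shares 737 bases with Sphk2, Arntl 2394 bases with Gm45355 and Tef 193 bases with Gm17597, and without strand in the counting, which is not given in the sources used here, reads of such pairs could not be told apart.

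**Figure D3:**
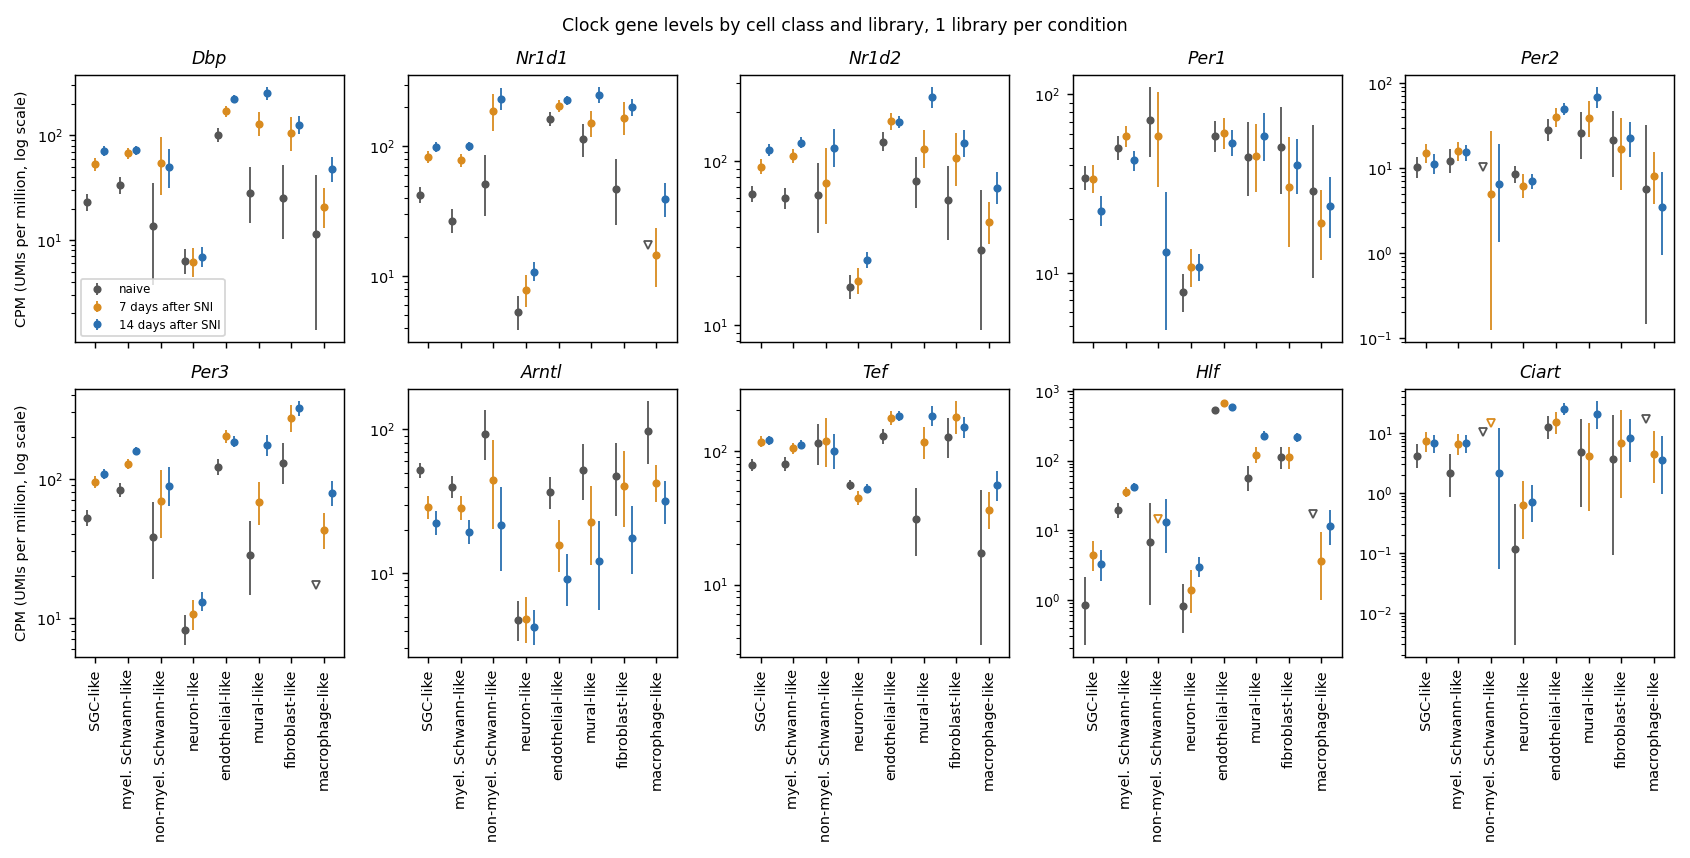
CPM (log scale) of each gene by cell class in the naive, 7-day and 14-day libraries, with 95% Poisson intervals. Open triangles mark the level of 3 counts where a library held 0. Endothelial-like Hlf lies above 500 CPM, neuron-like cells are the lowest or among the lowest for most genes, and the naive points are the highest for Arntl outside the neuron-like cells.

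The neuron-like values were examined further, since these cells were shallow at day 7 and held UMIs of Fabp7. In an estimate chosen after seeing the data, all Fabp7 in neuron-like cells was taken to come from SGC-like cells, and the matching share of each SGC-like level was subtracted. It has no interval. SGC RNA could then hold 0.576, 2.29 and 3.18 of the Dbp CPM, which left 5.77, 3.93 and 3.75 CPM and log2 ratios of -0.56 at day 7 and -0.62 at day 14. At day 14 the ratios left for Nr1d1, Nr1d2 and Per3 were 0.61, 0.34 and 0.25, against 1.04, 0.54 and 0.67 as measured, and at day 7 they were -0.02, -0.09 and -0.10. Arntl had 0.07 at day 7 and -0.07 at day 14. At day 14 the subtraction turned the direction for Dbp alone of these 5 genes, and at day 7 it turned Nr1d1, Nr1d2 and Per3. In the neuron-like cells with at least 10000 UMIs, which numbered 107, 56 and 119, Dbp was at 6.40, 5.85 and 6.91 CPM and Arntl at 4.62, 4.71 and 4.21 CPM, and the libraries differed by less than counting error, as in the whole class. Nr1d1 in these cells was at 5.21, 7.31 and 10.7 CPM. Per1 at day 7 was just above naive in them, by 0.52 (0.01 to 1.03), and Tef was below, by -0.32 (-0.55 to -0.10). These deep cells supplied most UMIs of the class, for Tef 465 of 471, 271 of 285 and 650 of 662. Their summed values therefore had to lie near those of the whole class and do not describe the shallow cells.

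The mural-like class joins pericytes with smooth muscle, whose mix could differ between libraries. Among its cells without a UMI of the smooth muscle gene Myh11, which numbered 29, 28 and 44, Dbp was at 17.3, 400.9 and 463.5 CPM on 1, 25 and 49 UMIs and Tef at 34.7, 304.7 and 283.8 CPM on 2, 19 and 30 UMIs. The direction was that of the whole class, with naive counts too low for a firm ratio.

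From a list of 20 further clock genes, the counts with a day 14 interval above and below 0 were 4 and 2 of 18 in SGC-like, 5 and 1 of 17 in myelinating Schwann-like, 5 and 2 of 17 in endothelial-like and 4 and 1 of 14 in mural-like cells. They were 0 and 3 of 14 in non-myelinating Schwann-like, 5 and 2 of 19 in neuron-like, 0 and 1 of 16 in fibroblast-like and 2 and 0 of 10 in macrophage-like cells. These counts are read against the shares of all genes given above for each class. In neuron-like cells the 5 of 19 above 0 were near the 25.8% of all genes. Their medians lay between -0.22 and 0.52 over the 8 classes, nearer to that of all genes than those of the 10 members. Cry2, a partner of the Per proteins, was at 26.3, 38.9 and 42.1 CPM in SGC-like and at 44.4, 72.8 and 77.7 CPM in endothelial-like cells, with day 14 ratios of 0.68 and 0.81. Its paralog Cry1 went the other way in SGC-like cells, at 18.8, 13.2 and 9.72 CPM (-0.95, -1.49 to -0.43), and in myelinating Schwann-like cells, at 24.1, 20.6 and 16.9 CPM (-0.51, -0.96 to -0.06). In endothelial-like cells Wee1, a cell cycle kinase and clock output, was at 9.11, 12.7 and 23.5 CPM, Bhlhe41, a repressor of the loop, at 6.83, 7.59 and 15.4 CPM, and Nfil3, which competes with Dbp at D-boxes, at 17.7, 6.33 and 5.87 CPM (-1.59, -2.56 to -0.67). Usp2, a ubiquitin protease with daily rhythm, was at 51.9, 138.1 and 116.8 CPM in mural-like cells and at 1.65, 3.73 and 4.81 CPM in neuron-like cells.

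Other gene groups moved between the same libraries. Of 10 glucocorticoid-responsive genes, the median day 14 ratio was -0.87 in endothelial-like, -0.42 in myelinating Schwann-like and 0.01 in SGC-like cells, and 6 of the 9 with a ratio in endothelial-like cells had an interval below 0, against 9.65% of all genes. In neuron-like cells the median was 0.44, with 5 of 9 intervals above 0 and 1 below, against 25.8% and 13.8% of all genes. In mural-like cells it was -0.14, with 1 interval above 0 and 1 below of 9, against 4.83% and 5.14% of all genes. Of 11 immediate early and heat shock genes the median was -0.15 in SGC-like, 0.42 in myelinating Schwann-like, 0.27 in endothelial-like and 1.04 in fibroblast-like cells. It was 0.47 in neuron-like cells (6 intervals above 0 and 1 below of 11) and 0.72 in mural-like cells (5 above and 1 below of 10). These counts stand against the same shares of all genes, 25.8% and 13.8% in neuron-like and 4.83% and 5.14% in mural-like cells. Tsc22d3, of the glucocorticoid list, was at 374 CPM in the naive and 146.7 CPM in the day 14 myelinating Schwann-like cells, a ratio of -1.35 (-1.48 to -1.22). Hspa1a, an inducible gene of the immediate early and heat shock list, was at 162.8 CPM in naive and 70.0 CPM in day 14 SGC-like cells and at 105.9 and 12.1 CPM in endothelial-like cells, ratios of -1.22 and -3.13. It does not stand for its list, which was split in endothelial-like cells, with 4 intervals above 0 and 3 below of 11 (all genes 10.7% and 9.65%). In SGC-like cells 1 was above and 5 were below of 11 (all genes 12.7% and 12.2%). The median share of mitochondrial UMIs was higher in both injured libraries in every non-neuronal class with ratios. It was 13.3%, 15.1% and 15.6% in SGC-like, 5.40%, 6.80% and 7.02% in endothelial-like and 10.2%, 12.2% and 12.8% in mural-like cells. In neuron-like cells it was higher at day 7 alone, at 8.22%, 10.3% and 8.11%. The median UMIs per cell were also higher in both injured libraries in each of those non-neuronal classes. The part of these in the clock gene values was not tested.

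The genes most like Dbp and Arntl were taken by Pearson's r of log2(CPM + 1), centred within each class, over 24 points (8 classes in 3 libraries) and 11161 genes. The points share libraries, so r is a description. The 5 nearest to Dbp were Rassf1 (0.920), March7 (0.918), Nr1d2 (0.901), mt-Nd2 (0.897) and Fam76a (0.896), and Arntl was near the other end with an r of -0.867. Of the members, Tef followed Dbp with 0.80, Nr1d1 with 0.76 and Per3 with 0.69, while Per1 had -0.30. The 5 nearest to Arntl were Dnaja1 (0.941), Sumo2 (0.927), Hspa8 (0.924), Hsph1 (0.909) and Hnrnpk (0.908). Dnaja1, Hspa8 and Hsph1 encode chaperones. Hspa8 was at 1517, 1011 and 846.4 CPM in SGC-like and at 2148, 1293 and 815.1 CPM in endothelial-like cells, and in neuron-like cells, where Arntl differed by less than counting error, it was at 1034, 1025 and 1135 CPM. Hsph1 was at 99.6, 28.5 and 21.3 CPM in endothelial-like cells, a ratio of -2.23 beside the -1.99 of Arntl, and its neuron-like ratio was -0.37 (-0.46 to -0.28).

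**Figure D4:**
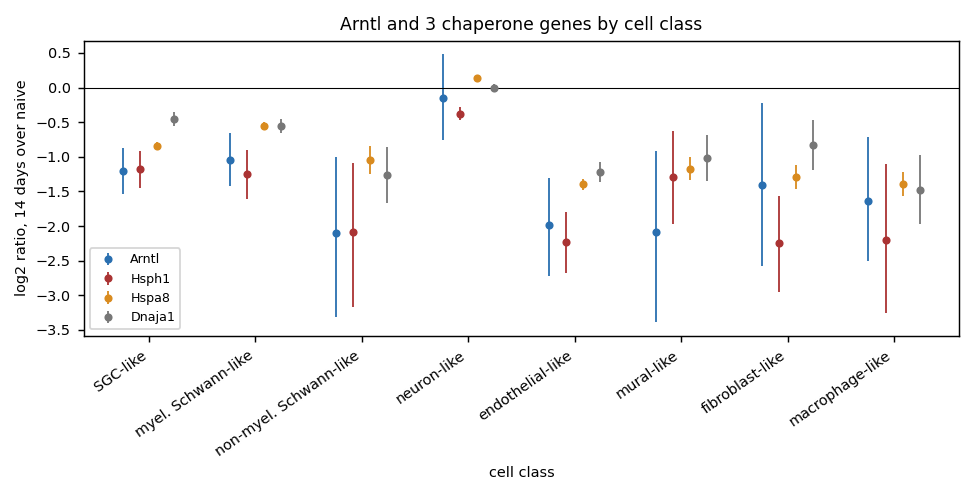
Log2 ratio of CPM at 14 days over naive (vertical axis) for Arntl, Hsph1, Hspa8 and Dnaja1 in 8 cell classes, with 95% counting intervals. The 4 genes lie below 0 in the 7 non-neuronal classes, and in neuron-like cells only Hsph1 has an interval below 0.

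The 3 small immune classes gave counts alone. T and NK-like cells (9, 21 and 40 cells) held 0, 0 and 7 Dbp UMIs and 0, 3 and 9 Arntl UMIs. B-like cells (13, 5 and 19) held 0, 0 and 3 Dbp UMIs, and neutrophil-like cells (16, 18 and 27) held no Dbp and no Arntl UMI in any library. No order could be read at this depth.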

How the data were processed

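The DRG cells were captured with the 10x Genomics 3′ v3 kit, and the authors deposited gene by cell matrices of raw UMI counts per library, made with Cell Ranger 3.0.2 and build mm10 per the submitters' processing notes. The libraries held 23107376, 22343246 and 36550911 UMIs over 3748, 3281 and 4908 barcodes (naive, day 7 and day 14). Whether reads were downsampled between libraries is not given in the sources used here. From these counts, 9662 cells passed a minimum of 500 detected genes and a maximum of 20% mitochondrial UMIs. Doublets called by Scrublet in scanpy 1.11.5 (90 cells, 0.931%, expected rate 5%) were left out. A cell joined the class whose mean marker score, on the natural log of counts scaled to 10000 per cell plus 1, led every other class by at least 0.5 with at least 2 markers detected. CPM and ratios came from UMIs summed per class. A ratio was formed with at least 10 UMIs in both libraries together and 20 cells in each. A library at 0 was set to 3 counts, and the ratio was given as a bound. Intervals (95%, scipy 1.17.1) cover counting error only; that of a class against all other gated cells was taken on the log scale. No tests were made, since there is 1 library per condition. The interval calculation was tested on simulated counts.

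All 10 members were named in every class. Up to 4 of 20 other clock genes per class were eligible by their largest day 14 ratio among genes with at least 30 UMIs. The 5 genes nearest to Dbp and Arntl were named, and genes of the other lists were named after their values were seen. The members and lists were chosen with earlier results of these data known. Alternatives changed the cell filter, doublet removal, gate (stricter, or Leiden clusters), scaling, minimum count, weighting of cells (means of single cells, or 2000 UMIs per cell). Added after seeing the data were neuron-like cells of at least 10000 UMIs, mural-like cells without Myh11 and levels less the share of SGC RNA, from Fabp7. Promoters and motifs came from the RefSeq table of GRCm38.p6.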

Additional observations from a re-analysis of the deposited data

Results flagged for a closer look

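Per1 at day 14 over naive had counting intervals on opposite sides of 0 in different classes, with log2 ratios of 0.47 in neuron-like, -0.61 in SGC-like and -2.47 in non-myelinating Schwann-like cells. Tef at day 7 over naive did so too, with 0.59 in SGC-like, 0.39 in myelinating Schwann-like, 0.46 in endothelial-like and 1.91 in mural-like cells against -0.32 in neuron-like cells. With 1 library per condition these differences between classes were not tested.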

How the results depend on the processing

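The median ratio over classes of each gene stayed within the spread among classes under every alternative run (260 of 260 values). That is a loose criterion, since the spread was wide, from 0.13 to 3.16 for Dbp at day 14. The subtraction of SGC RNA, which has no interval, is not among these values. The median for Dbp at day 14 ranged from 1.50 to 1.93, for Nr1d1 from 1.15 to 1.80, for Per3 from 0.79 to 1.21 and for Arntl from -1.99 to -1.29. That of Per2 ranged from 0.11 to 1.06 at day 14 (0.24 as reported) and from -0.03 to 0.63 at day 7 (0.49), so its day 7 sign was not kept. Of 1788 single ratios, 1723 stayed within their counting interval, 62 moved and 3 changed sign. This total includes settings of the minimum count, which cannot move a ratio, and cell subsets that change 1 class only. With the stricter cell filter 101 of 122 stayed, and with cells thinned to 2000 UMIs 93 of 116 did. Per3 in SGC-like cells at day 7 became -0.24 (-1.37 to 0.73) with the stricter cell filter (minimum 1000 genes, maximum 10% mitochondrial UMIs), Tef in neuron-like cells at day 7 became 0.94 (-0.44 to 2.42) with cells thinned to 2000 UMIs, and Hlf in endothelial-like cells at day 14 became -0.0112 (-0.25 to 0.23) with the same thinning. Thinning leaves fewer UMIs by construction and gave a ratio for 55 pairs at day 7 and 61 at day 14, against 71 and 73 as reported. Of these, 17 had an interval above 0 and 2 below at day 7, and 30 above and 6 below at day 14. The share of all genes was not taken under thinning. The signs of the lower Tef in neuron-like cells at day 7 and of the small Hlf ratio were therefore not kept with thinning. Both thinned intervals include the ratio as reported, so thinning does not settle either sign. The lower Tef was also seen in neuron-like cells of at least 10000 UMIs. Those cells held 271 of the 285 neuron-like Tef UMIs at day 7, so this subset could hardly differ from the class. No paired analysis was possible because a condition is a single library, and for that reason no replicate could be left out. Depth limits Ciart, Per2 and the naive macrophage-like, fibroblast-like and non-myelinating Schwann-like cells.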
